A study of Mus musculus with 27 samples.

Results

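Glycolysis breaks glucose down to pyruvate, and cells that export the lactate made from it can keep the pathway running when oxygen or mitochondrial capacity is short. The hypoxia-inducible factor (HIF) is a transcription factor whose alpha subunit is hydroxylated and degraded when oxygen is present, and it switches on many glycolysis genes together with genes for vessel growth and stress. In macrophages, cytokines and microbial products are known to raise the same genes without a lack of oxygen. The set described here holds 35 genes, 35 of the 41388 gene identifiers counted, chosen by symbol as glycolysis genes and known HIF targets. Of these, 5 encode transporters of glucose or lactate, 12 encode enzymes or regulators of the first steps of glycolysis, 8 act in the later steps or on the fate of pyruvate, and 10 belong to oxygen sensing or are HIF targets.

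RNA was sequenced in bulk from macrophages sorted out of the dura mater, the outer membrane around the brain, with sort markers that the labels do not name. All 27 libraries came from B6 mice without Rag1, which keep innate immune cells but form no mature T or B cells, and the mice were 16 to 19 weeks old. In 6 groups the mice had received T cells 6.5 weeks earlier. The donor cells were Tbet ko (2 libraries, lacking the transcription factor of type 1 helper cells), IFNg ko (2, lacking interferon-gamma), IL6Ra ko/IL21R ko (7, lacking receptors for cytokines that drive interleukin-17-producing cells), IL-17AF ko (2), IL22 ko (3) or total B6 T cells (5, here called total T). The 6 libraries of the last group came from mice at steady state with no T cells (no T). Libraries are named by group, sex and a running number, such as total T F1. Whether each library stands for an animal of its own is not stated in the labels, so the p-values rest on the spread between libraries and that spread may be technical. The 2 Tbet ko columns carry the same running number in their names and may come from 1 animal. Their counts differed, for example 322 and 514 for Slc2a1.

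Levels are given as CPM, read counts scaled to a common library total after edgeR's TMM scaling of the libraries. Library totals lay between 6902602 and 19966749 counts. Summed CPM of pan-macrophage markers lay between 19076 and 30632 in every library, and none of these markers was at 0. The libraries fell into 3 separate sets by the summed CPM of 84 ribosomal protein genes. Set A held 7 libraries with 29926 to 36719 CPM, which were 3 total T and 4 no T libraries. Set B held 13 libraries with 12615 to 17712 CPM, and set C held 7 with 8180 to 9633 CPM. All Tbet ko, IFNg ko and IL-17AF ko libraries and 1 IL6Ra ko/IL21R ko library (M4) were in set C, which held no total T and no no T library, so set C and these 3 groups cannot be told apart in a comparison with either. Some members with near-identical copies elsewhere, such as Gapdh, had far fewer reads in sets B and C. A member was set apart when at least 20% of the 75-base windows of its transcripts matched a transcript of another gene with at most 2 mismatches. That held for 9 members, namely Gpi1, Aldoa, Gapdh, Pgk1, Pgam1, Eno1, Pkm, Ldha and Bnip3, with shares from 20.3% for Aldoa to 84.8% for Eno1. The nearest member below the limit was Tpi1 at 16.1%. Of the 26 members without such copies, 25 were tested, and Ankrd37, a small HIF target, was too low at 4.72 CPM or less in every library.

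Macrophages from mice that had received total T cells carried more RNA of the glucose transporters Slc2a1 and Slc2a6, the lactate exporter Slc16a3, several enzymes of early glycolysis, and Hif1a and Vegfa than macrophages from mice with no T cells. Other members did not follow, among them Slc2a3, which was lower, and 4 of the 8 oxygen-sensing genes and HIF targets, which were not called. With edgeR's quasi-likelihood test over 12661 genes, 14 of the 25 members without copies were higher in the total T libraries at an adjusted p under 0.05 and 1 was lower, where 21.1% of all genes were called (11.5% of all genes higher, 9.6% lower). The median log2 fold change of the 25 members was 0.77, against -0.025 for all genes tested. By role, 3 of 5 transporters, 7 of 10 genes of the first steps, 0 of 2 genes of the later steps and 4 of 8 oxygen-sensing genes and HIF targets were called higher. In bulk RNA, fewer cells of a type and less RNA per cell cannot be told apart.

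Among the transporters, 3 were called higher. Slc2a1, the main glucose transporter of many cell types, lies at chr4:119108711-119137983 (GRCm38, plus strand) and reached 404, 134, 107, 114 and 386 CPM in total T F1, F2, F3, F4 and M1, against a lowest, median and highest value of 25.4, 42.6 and 66.5 CPM in the no T libraries. Slc2a6, a transporter of the same family that is expressed in macrophages, had 188, 97.8, 29.0, 47.9 and 196 CPM in the total T libraries, against 5.67, 8.18 and 28.8 CPM as the lowest, median and highest no T value. Slc16a3, the lactate exporter of glycolytic cells, had 463, 103, 54.5, 65.2 and 280.3 CPM in the total T libraries and 16.0, 25.6 and 48.8 CPM in the no T libraries. For these 3 genes every total T library lay above every no T library, while total T F1 and M1 stood well above the other total T libraries. The log2 fold changes were 2.32 ± 0.35 (SE) for Slc2a1 (adjusted p = 8.75e-05), 3.28 ± 0.50 for Slc2a6 (adjusted p = 9.57e-05) and 2.81 ± 0.45 for Slc16a3 (adjusted p = 0.000142). Slc2a3, a high-affinity glucose transporter, went the other way, with 1.89, 8.42, 6.84, 11.0 and 3.72 CPM in the total T libraries and 5.47 to 22.8 CPM in the no T libraries. Its log2 fold change of -1.11 ± 0.37 (adjusted p = 0.0341) was the only called fall among the members, the groups overlapped, and the call was lost without total T F1 or M1, among others. Slc16a1, the more widely expressed lactate transporter, was not called (0.44 ± 0.22, adjusted p = 0.152).

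**Figure D1:**
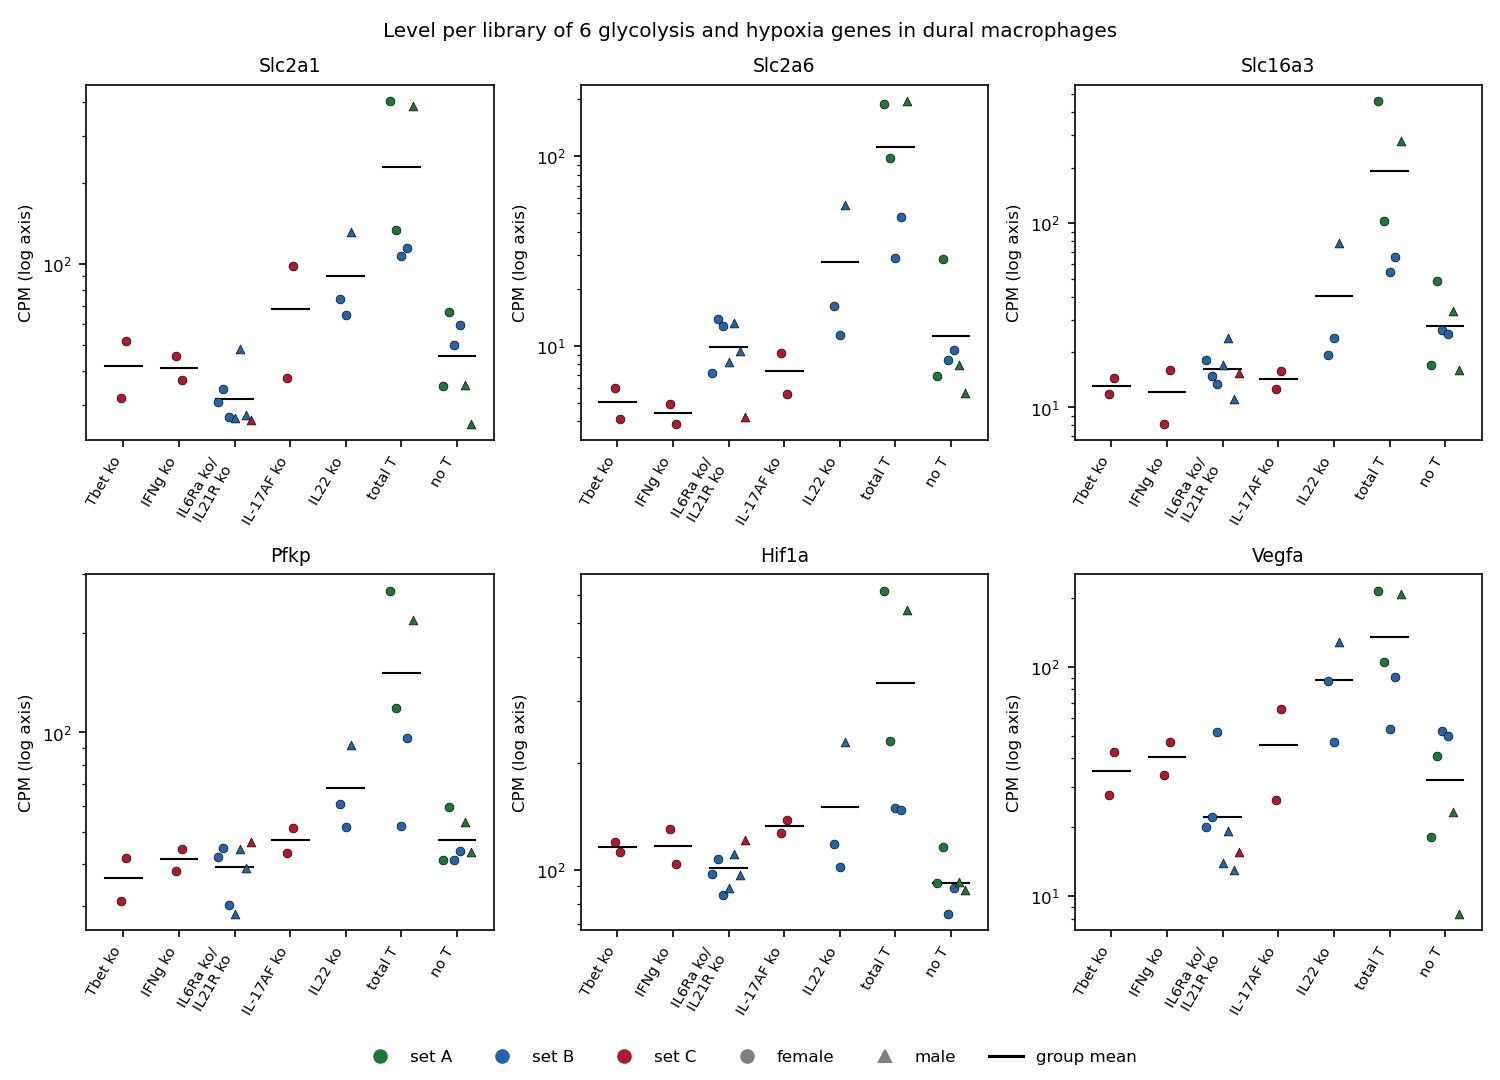
CPM of Slc2a1, Slc2a6, Slc16a3, Pfkp, Hif1a and Vegfa in each library on a log axis, by group, with circles for females, triangles for males, colours for the library sets and a bar at the group mean. Total T F1 and M1 are the highest pair in all 6 panels, and the IL6Ra ko/IL21R ko libraries lie in or below the range of the no T libraries for Slc2a1 and Slc16a3.

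Among the enzymes of the first steps, the calls included the platelet and liver types of phosphofructokinase, the enzyme of the committed step. Pfkp had 268, 118.5, 52.2, 96.5 and 219 CPM in the total T libraries, against 41.1, 43.8 and 59.7 CPM as the lowest, median and highest no T value (log2 fold change 1.69 ± 0.27, adjusted p = 0.000112). Pfkl had 238, 102, 59.4, 78.1 and 231 CPM in the total T libraries, against 47.2, 59.3 and 70.7 CPM in the no T libraries (1.24 ± 0.23, adjusted p = 0.000631). Total T F3 fell inside the no T range for both genes, and the other 4 libraries lay above it. Tpi1, triose phosphate isomerase, had 644, 205.5, 175, 192 and 519 CPM in the total T libraries and 130 to 189 CPM in the no T libraries (1.25 ± 0.24, adjusted p = 0.000791). All 3 hexokinases, which trap glucose as its phosphate, were called higher. Hk3 had 517, 187, 159, 215 and 461 CPM in the total T libraries against 130.1 to 165 CPM in the no T libraries (1.07 ± 0.22, adjusted p = 0.00146), and Hk2 had 328, 226, 168, 190.0 and 301 CPM against 115 to 176 CPM (0.77 ± 0.18, adjusted p = 0.00301). Hk1, the housekeeping type, rose least, with 117, 73.8, 77.1, 89.8 and 132 CPM in the total T libraries and 63.8 to 78.0 CPM in the no T libraries (0.43 ± 0.15, adjusted p = 0.0398). Aldoc, an aldolase, was low, with 24.7, 6.95, 6.73, 11.4 and 21.9 CPM in the total T libraries and 2.51 to 8.57 CPM in the no T libraries (1.53 ± 0.47, adjusted p = 0.0223). The calls of Hk1 and Aldoc were lost when total T F1 or M1, among others, was left out. The muscle type of phosphofructokinase and the enzymes that set the level of its activator were not called: the log2 fold change was -0.07 ± 0.18 for Pfkm, 0.31 ± 0.15 for Pfkfb3 and -0.04 ± 0.10 for Pfkfb4.

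Hif1a, which encodes the oxygen-regulated HIF subunit, had the smallest p of the members in this comparison. It had 616, 231, 150, 148 and 542 CPM in the total T libraries, all above the no T libraries at 74.9, 90.0 and 116 CPM as the lowest, median and highest value (1.88 ± 0.27, adjusted p = 6.52e-05). Vegfa, the vessel growth factor, had 216, 105, 53.9, 90.3 and 209 CPM in the total T libraries, against 8.37, 32.1 and 52.8 CPM in the no T libraries (2.13 ± 0.44, adjusted p = 0.00134), and the lowest total T library lay just above the highest no T library. Egln3, a HIF hydroxylase that is itself a HIF target, had 24.5, 4.06, 5.30, 1.52 and 10.6 CPM in the total T libraries and 0.114 to 3.82 CPM in the no T libraries (2.68 ± 0.83, adjusted p = 0.0236). Ndrg1, a stress-response gene, had 100.5, 49.9, 48.3, 53.6 and 59.5 CPM in the total T libraries and 20.1 to 51.1 CPM in the no T libraries (0.93 ± 0.28, adjusted p = 0.0197). The call of Ndrg1 was lost without total T F1, and that of Egln3 without total T F1, total T M1 or no T M2. The main oxygen sensor Egln1 was not called, with a log2 fold change of 0.05 ± 0.13, and Ddit4, an inhibitor of growth signalling, was at 0.66 ± 0.32 (adjusted p = 0.153). The pyruvate dehydrogenase kinase Pdk1, whose product holds pyruvate back from the mitochondria, was at 0.73 ± 0.30 (adjusted p = 0.0808). Mxi1, P4ha1 and Eno2, which encode a MYC antagonist, a collagen hydroxylase and the neuronal enolase, lay between -0.28 and -0.10 and were not called. In 5 of the 25 members, Slc2a1, Slc2a6, Slc16a3, Hif1a and Vegfa, every total T library lay above every no T library, which held for 6.26% of all genes, and the reverse held for 0 members and 4.2% of all genes. About 8.1% of the exon length of Hif1a is overlapped by Gm15283 on the other strand, and with an unstranded kit their reads cannot be told apart.

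Total T F1 and M1 were the highest pair of the 5 total T libraries in 18 of the 25 members without copies and the lowest pair in 4 of them. They also differed in cell type markers. The summed CPM of 13 markers of monocyte-derived cells was 9316 in F1 and 4372 in M1, against 2335 to 3398 in the other total T libraries and 950.1 to 1628 in the no T libraries. The summed CPM of 18 markers of resident border macrophages was 15612 in F1 and 18931 in M1, against 33355 to 35149 in the other total T libraries and 37316 to 46571 in the no T libraries. The summed CPM of 7 endothelial markers was 161 in F1 and 172 in M1, against 43.7 to 78.7 in the other total T libraries and 19.2 to 103 in the no T libraries. The summed CPM of 8 fibroblast markers was 315 to 472 in all total T libraries, against 588 to 1684 in the no T libraries, without overlap. No marker of these 4 lists was at 0 in a whole group, and the part of these cells in the results was not tested. Without F1 and M1, an alternative added after the values were seen, 5 of the 25 members were called higher, where 6.23% of all genes were called in either direction: Slc2a6 at 2.34 ± 0.50, Slc16a3 at 1.51 ± 0.36, Slc2a1 at 1.36 ± 0.30, Hif1a at 1.00 ± 0.19 and Pfkp at 0.96 ± 0.22 (adjusted p from 0.00367 to 0.0159). Within set A, 16 of the 25 members were called higher in total T libraries, where 16.8% of all genes were called. Within set B, with 2 libraries in each group, 0 were called by edgeR, where 0.742% of all genes were called, with 6 at an unadjusted p under 0.05, 17 of 25 fold changes above 0 and a median of 0.28. Slc2a1 was 2.92 ± 0.42 higher on the log2 scale in set A and 1.03 ± 0.27 (adjusted p = 0.0798) in set B. Hif1a was at 2.25 ± 0.29 in set A and 0.87 ± 0.24 (adjusted p = 0.0916) in set B. Total T F1 and M1 were 2 of the 3 total T libraries of set A, so a difference between the sets also carries their difference from the others. The other set A library, F2, had 134 CPM of Slc2a1 and 231 CPM of Hif1a. The set B libraries F3 and F4 had 107 and 114 CPM of Slc2a1, and 150 and 148 CPM of Hif1a. The difference between the sets in the effect of total T cells was called for 0 of 12661 genes by edgeR, with 1255 genes at an unadjusted p under 0.05. That does not show that the effect was alike in both sets. The log2 difference, set B minus set A, was -1.89 for Slc2a1, -1.65 for Slc2a6, -2.025 for Slc16a3, -1.38 for Hif1a and -1.21 for Pfkp. Their unadjusted p lay between 0.0068 and 0.060, and their adjusted p between 0.397 and 0.526. Of the 25 members, Slc2a3, Pfkm, Pfkfb4 and Mxi1 went the other way, by 0.24 to 0.48.

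**Figure D2:**
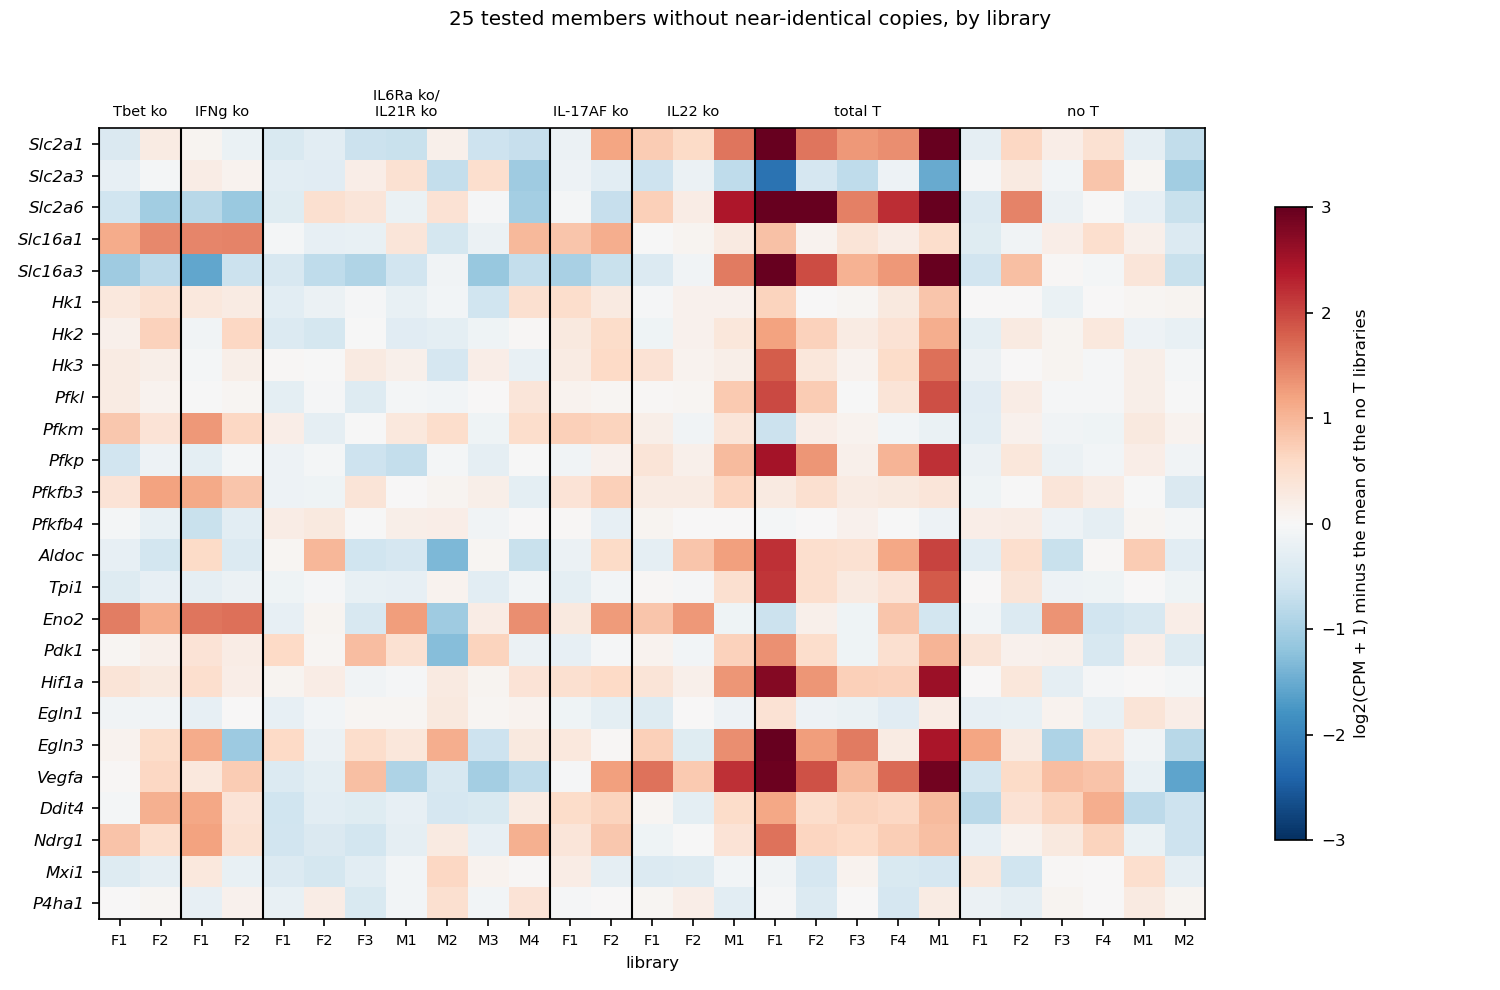
Difference of log2(CPM + 1) from the mean of the no T libraries for the 25 tested members without near-identical copies (rows) in each of the 27 libraries (columns), red above and blue below that mean, on a scale that ends at a difference of 3 either way. The red block is strongest in total T F1 and M1, is fainter in total T F2, F3 and F4 and in IL22 ko M1, and is missing in most IL6Ra ko/IL21R ko libraries.

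The promoters of a few members are shown because these genes moved together, with Slc16a1 beside its paralogue Slc16a3. Each sequence runs 5′ to 3′ over 300 bases around a RefSeq transcript start on GRCm38.p6, from 250 bases before it. Capitals mark the core of the hypoxia response element, ACGTG, and its variant GCGTG on either strand, where CACGTG holds ACGTG on both strands and is counted on each. Slc2a1 is shown at chr4:119108495-119108794, Slc16a3 at chr11:120948817-120949116, Slc16a1 at chr3:104638414-104638713 and Hif1a at chr12:73907617-73907916, all on the plus strand.
Slc2a1: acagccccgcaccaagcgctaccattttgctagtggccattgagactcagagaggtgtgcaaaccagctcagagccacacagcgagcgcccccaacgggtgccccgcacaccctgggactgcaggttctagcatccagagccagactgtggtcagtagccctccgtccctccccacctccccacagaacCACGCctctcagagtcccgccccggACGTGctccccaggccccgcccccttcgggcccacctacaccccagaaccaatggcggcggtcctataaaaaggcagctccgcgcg
Slc16a3: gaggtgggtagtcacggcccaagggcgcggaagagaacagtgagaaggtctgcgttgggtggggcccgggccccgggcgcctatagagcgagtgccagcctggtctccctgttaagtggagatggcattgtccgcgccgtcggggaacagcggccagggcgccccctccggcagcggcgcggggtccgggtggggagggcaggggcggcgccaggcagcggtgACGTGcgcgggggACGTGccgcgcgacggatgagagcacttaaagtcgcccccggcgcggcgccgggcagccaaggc
Slc16a1: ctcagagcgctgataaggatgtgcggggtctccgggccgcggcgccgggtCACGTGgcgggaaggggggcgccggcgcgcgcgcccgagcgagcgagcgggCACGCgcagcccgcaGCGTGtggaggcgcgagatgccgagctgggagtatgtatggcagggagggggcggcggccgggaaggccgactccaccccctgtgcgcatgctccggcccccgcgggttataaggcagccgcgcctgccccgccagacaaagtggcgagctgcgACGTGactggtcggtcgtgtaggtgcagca
Hif1a: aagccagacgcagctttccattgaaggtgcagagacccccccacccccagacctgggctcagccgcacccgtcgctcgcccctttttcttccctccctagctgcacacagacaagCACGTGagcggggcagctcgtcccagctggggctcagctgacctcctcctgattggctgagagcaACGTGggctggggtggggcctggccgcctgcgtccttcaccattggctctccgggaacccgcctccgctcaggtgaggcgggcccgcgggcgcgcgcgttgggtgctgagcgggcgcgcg
Slc2a1 held 1 ACGTG and 1 GCGTG, Slc16a3 held 2 ACGTG and Hif1a 3, and Slc16a1, which was not called between total T and no T libraries, held 3 ACGTG and 2 GCGTG. Of the 33 members with a window in the table, 24 had ACGTG in at least 1 window and 30 had either motif. Over all 27025 genes with a window the shares were 21.8% for ACGTG and 46.7% for either motif. These shares are no test, since the members were chosen as glycolysis genes and known HIF targets. The members also had 49 windows for 33 genes, against 32851 windows for all 27025. A match is a description of these letters only.

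When the T cells came from IL6Ra ko/IL21R ko donors, macrophages carried less RNA of the same genes than with total T cells. Against total T libraries, 15 of the 25 members were lower in the IL6Ra ko/IL21R ko libraries and 1 was higher, where 28.2% of all genes were called (14.8% lower, 13.3% higher), and the median log2 fold change was -1.07 against 0.034 for all genes. This comparison shares the total T libraries with the previous one, so the directions are not independent. The lowest, median and highest of the 7 IL6Ra ko/IL21R ko values were 26.3, 27.5 and 48.1 CPM for Slc2a1, against 107 to 404 CPM in the total T libraries (log2 fold change -2.91 ± 0.34, adjusted p = 5.44e-06). Slc16a3 had 11.1, 15.3 and 23.8 CPM, against 54.5 to 463 CPM (-3.70 ± 0.45, adjusted p = 6.11e-06), and Slc2a6 had 4.23, 9.34 and 13.8 CPM, against 29.0 to 196 CPM (-3.54 ± 0.48, adjusted p = 1.52e-05). None of these 3 transporters overlapped between the groups. Pfkp had 28.3, 41.9 and 46.6 CPM, against 52.2 to 268 CPM (-2.02 ± 0.26, adjusted p = 9.85e-06), and Pfkl had 45.4, 57.2 and 77.9 CPM, against 59.4 to 238 CPM (-1.43 ± 0.23, adjusted p = 7.82e-05). Hif1a had 84.9, 97 and 121 CPM, against 148 to 616 CPM (-1.84 ± 0.27, adjusted p = 2.78e-05), and Vegfa had 13, 19.2 and 52.1 CPM, against 53.9 to 216 CPM (-2.56 ± 0.42, adjusted p = 9.31e-05). In 9 of the 25 members every IL6Ra ko/IL21R ko library lay below every total T library, which held for 6.18% of all genes, and the reverse held for 0 members and 4.69% of all genes.

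Tpi1, the hexokinases and Aldoc were also called lower. Tpi1 had 116, 133 and 157 CPM as the lowest, median and highest IL6Ra ko/IL21R ko value (log2 fold change -1.44 ± 0.24), and Hk2 had 97.5, 114 and 144 CPM (-1.05 ± 0.18), both below all total T libraries. Hk3 had 104, 149.5 and 176 CPM (-1.09 ± 0.22) and Hk1 had 48.2, 64.7 and 103 CPM (-0.58 ± 0.15), and both overlapped with the total T range. Aldoc was at -1.79 ± 0.45, with 1.22, 2.96 and 10.2 CPM in the IL6Ra ko/IL21R ko libraries. Among the hypoxia genes, Ddit4 had 6.95, 8.27 and 13.3 CPM, below all total T libraries at 16.3 to 25.6 CPM (-1.15 ± 0.33, adjusted p = 0.0102). Ndrg1 had 21, 26.3 and 67.1 CPM (-1.07 ± 0.29), the highest being M4 of set C, and Egln3 had 0.385, 1.71 and 3.51 CPM (-2.36 ± 0.81). Slc2a3 was the member called higher, with 5.43, 9.78 and 17.9 CPM (1.07 ± 0.38, adjusted p = 0.04). The adjusted p of these 9 genes lay between 9.63e-05 and 0.04. No IL6Ra ko/IL21R ko library was in set A, which held 3 of the 5 total T libraries. With library set as a term, the calls of Slc2a3 (0.71, adjusted p = 0.283), Aldoc (-1.13, adjusted p = 0.184), Egln3 (-1.18, adjusted p = 0.496) and Hk3 (-0.71, adjusted p = 0.0816) were lost. In that fit Slc16a1 was called lower at -0.75 ± 0.22 (adjusted p = 0.0214), and 13 members were called lower and 0 higher. Without total T F1 and M1, 9 members were called lower, namely Slc2a6, Slc2a1, Hk2, Tpi1, Pfkl, Slc16a3, Pfkp, Hif1a and Vegfa, where 12% of all genes were called. The summed monocyte-derived markers were at 489.5 to 1354 CPM in the IL6Ra ko/IL21R ko libraries, against 2335 to 9316 CPM in the total T libraries, and all 7 tested neutrophil markers were called lower, with sums of 0.096 to 3.97 CPM against 22 to 355 CPM. Summed border macrophage markers were higher, at 38695 to 56063 CPM against 15612 to 35149 CPM. Fibroblast markers were also higher, at 487 to 4217 CPM against 315 to 472 CPM. The part of these cells in the result was not tested. Within set B, with 6 IL6Ra ko/IL21R ko and 2 total T libraries, 9 were also called lower, where 6.65% of all genes were called, among them Slc2a1 at -1.97 ± 0.22 and Hif1a at -0.78 ± 0.20.

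Between IL6Ra ko/IL21R ko and no T libraries, edgeR called 0 of the 25 members without copies, where 1.16% of all genes were called. Only Slc16a3 had an unadjusted p under 0.05 (log2 fold change -0.90 ± 0.42, adjusted p = 0.445), and DESeq2 also called 0. Hif1a averaged 101 ± 12.9 CPM in the IL6Ra ko/IL21R ko libraries and 91.8 ± 13.4 CPM in the no T libraries (SD, n = 7 and 6). Slc2a1 averaged 31.5 ± 7.87 CPM and 45.3 ± 15.9 CPM in the same groups (-0.59 ± 0.33, adjusted p = 0.551). These p-values do not show that the groups are alike. Within set B, with 6 libraries against 2, Ddit4 at -1.52 ± 0.25 (adjusted p = 0.0147) and Ndrg1 at -1.04 ± 0.18 (adjusted p = 0.0202) were called lower in the IL6Ra ko/IL21R ko libraries, where 0.474% of all genes were called.

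**Figure D3:**
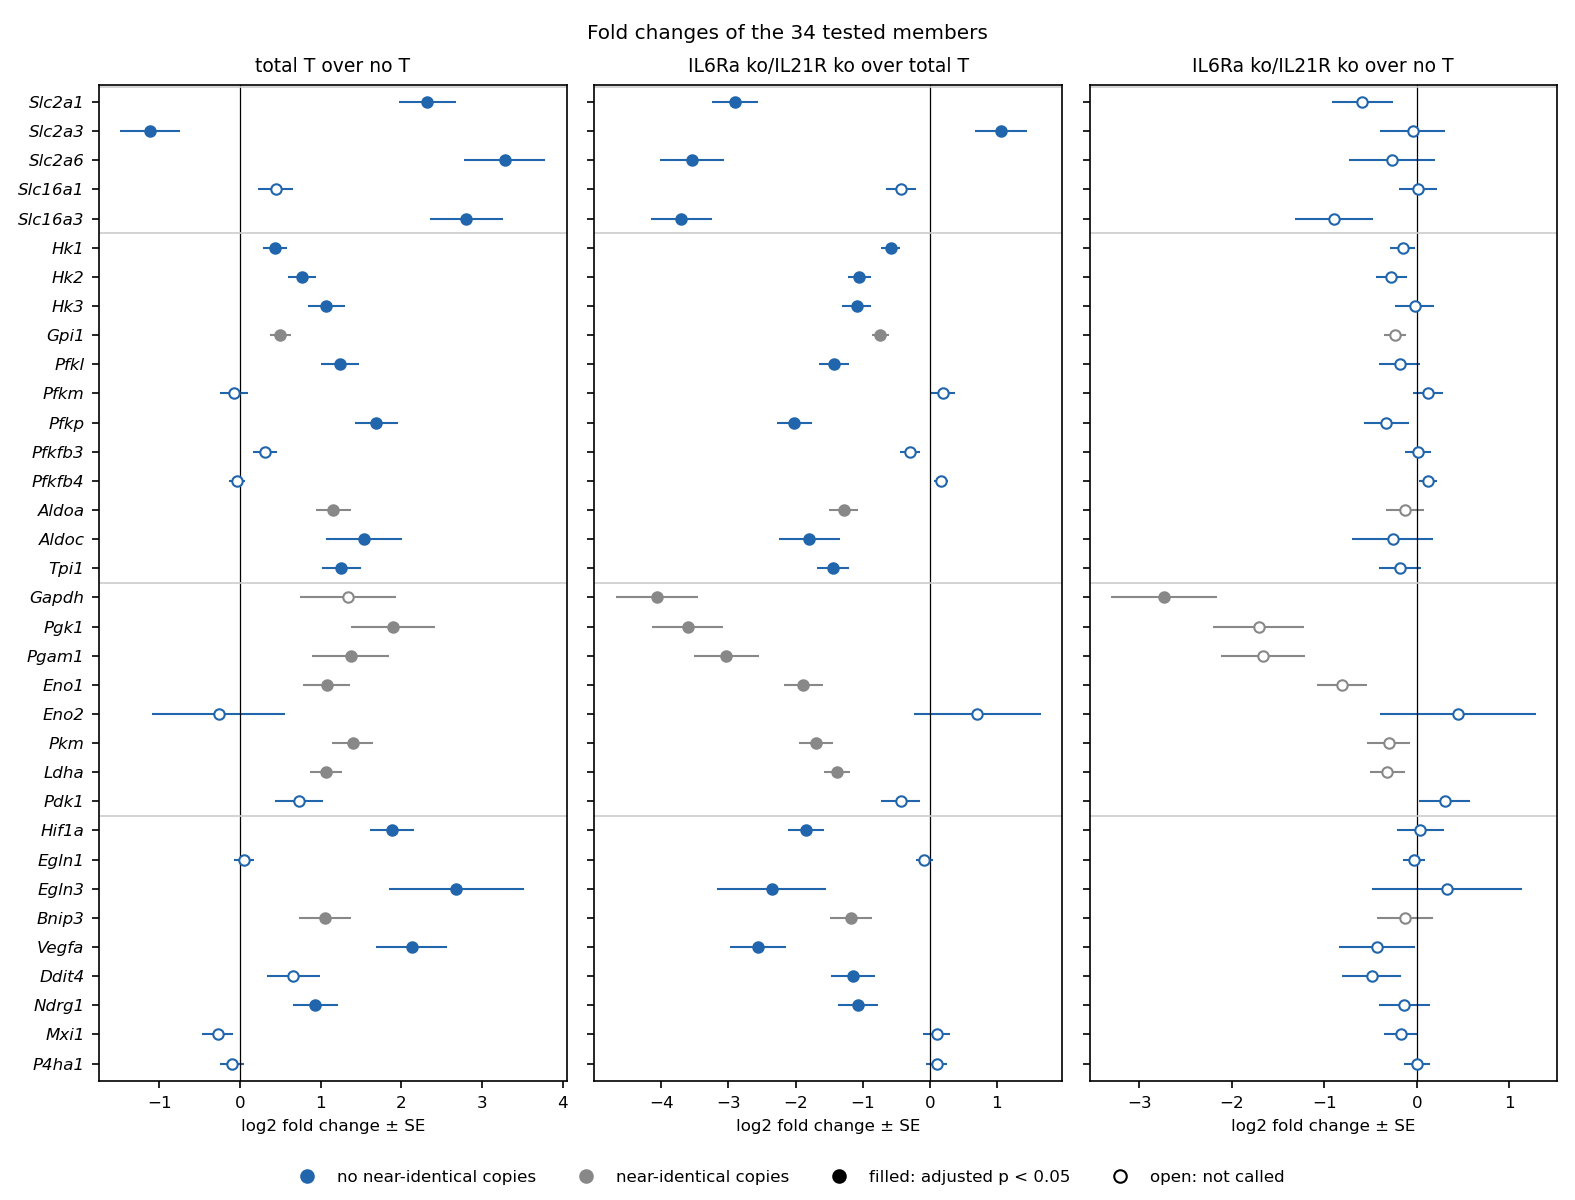
Log2 fold change ± SE of the 34 tested members for total T over no T, IL6Ra ko/IL21R ko over total T, and IL6Ra ko/IL21R ko over no T libraries, ordered by role. Blue points are members without near-identical copies and grey points members with them, filled where the adjusted p was under 0.05. Slc2a1, Slc2a6, Slc16a3, Pfkp, Hif1a and Vegfa lie to the right in the first panel and to the left in the second, and no blue point is filled in the third.

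Over all libraries, the IL22 ko group lay between the total T and no T groups in mean level for Slc2a1, Slc2a6, Slc16a3, Pfkp, Hif1a and Vegfa. Its 3 libraries were spread widely. All 3 were in set B, which held only 2 of the 5 total T libraries, so the comparison with total T also crosses library sets. Within set B, the Vegfa mean was higher in IL22 ko than in total T libraries, at 87.6 against 72.1 CPM. The Hif1a means were about equal there. Those of Slc2a1, Slc2a6, Slc16a3 and Pfkp still lay between the set B total T and no T means. Slc2a1 had 73.8, 64.7 and 132 CPM in IL22 ko F1, F2 and M1, and Slc16a3 had 19.3, 23.7 and 78.3 CPM. Vegfa had 86.8, 47.35 and 129 CPM, and Hif1a had 118.5, 101.5 and 230.0 CPM. IL22 ko M1 was the highest of the 3 in 19 of the 25 members without copies. Its summed monocyte-derived markers were at 2174 CPM, against 1308 and 1452 CPM in F1 and F2, and their part in the result was not tested. Against total T libraries, edgeR called 0 of the 25 members, where 0.284% of all genes were called (0.0869% of all genes lower), while 10 members had an unadjusted p under 0.05 and DESeq2 called 9 lower, where it called 5.75% of all genes. Slc16a3 was at -2.40 ± 0.59 and Hif1a at -1.24 ± 0.34 (adjusted p = 0.0567 and 0.0665), and edgeR called 9 members without total T F3 and 7 without total T F4. The shares of all genes called without these libraries are not given, so the counts do not show whether the members stood out. Against no T libraries, edgeR called 0 members and DESeq2 0, where edgeR called 0.0079% and DESeq2 1.15% of all genes, with 4 members at an unadjusted p under 0.05, led by Vegfa at 1.57 ± 0.50 (adjusted p = 0.218). Against IL6Ra ko/IL21R ko libraries, edgeR again called 0 members (0.0079% of all genes) and DESeq2 called 1 (0.66% of all genes), with 6 at an unadjusted p under 0.05. There Vegfa was at 2.0 ± 0.47 (adjusted p = 0.0898) and Slc2a1 at 1.53 ± 0.38 (adjusted p = 0.0927). Without IL6Ra ko/IL21R ko M2 or without IL22 ko F2, 1 member was called, and the shares of all genes called there are also not given.

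The 3 groups of set C, with 2 female libraries each, shared low levels of several of the genes that were high in total T libraries. Others did not follow, such as Hk1, Hk2 and Ndrg1, which were called lower in none of the 3 groups. The log2 fold changes of Hk1 against total T were 0.03 in Tbet ko, -0.08 in IFNg ko and 0.04 in IL-17AF ko libraries. In Tbet ko against total T libraries 9 of 25 members were lower and 2 higher, where 30.0% of all genes were called. In IFNg ko against total T libraries 10 were lower and 3 higher (36.4% of all genes), and in IL-17AF ko against total T libraries 7 were lower and 1 higher (11.6% of all genes lower, 13.5% higher, 25% in all). The summed monocyte-derived markers were at 554 to 563 CPM in Tbet ko, 481 to 492 CPM in IFNg ko and 673 to 790 CPM in IL-17AF ko libraries, against 2335 to 9316 CPM in total T libraries. Border macrophage markers were at 53680 to 57855 CPM in Tbet ko, 48795 to 55084 CPM in IFNg ko and 49525 to 55187 CPM in IL-17AF ko libraries, against 15612 to 35149 CPM in total T libraries. The part of these cells in the result was not tested. Slc2a6 had 6.03 and 4.11 CPM in Tbet ko, 4.95 and 3.87 CPM in IFNg ko and 9.15 and 5.59 CPM in IL-17AF ko libraries, against 29.0 to 196 CPM in total T libraries, with log2 fold changes of -4.39 ± 0.87, -4.61 ± 0.89 and -3.84 ± 0.84. Slc16a3 had 11.8 and 14.4 CPM in Tbet ko, 8.12 and 16.0 CPM in IFNg ko and 12.6 and 15.8 CPM in IL-17AF ko libraries. Slc2a1 had 31.8 and 51.5 CPM in Tbet ko and 45.3 and 37.0 CPM in IFNg ko libraries, while its IL-17AF ko values of 37.6 and 98.5 CPM stood far apart. Slc2a6, Slc16a3, Pfkp, Slc2a1, Tpi1, Hif1a and Pfkl were called lower in each of the 3 comparisons, which share the total T libraries. Vegfa was called lower in Tbet ko and IFNg ko libraries. The counts of called members rested on few libraries, and fell without either Tbet ko library, without IFNg ko F1 or without either IL-17AF ko library. Without total T F1, 5 members were called in IL-17AF ko libraries. The shares of all genes called in these fits are not given, so the falls do not show whether the members stood out. Without total T F1 and M1, 6 members were called in Tbet ko and 4 in IL-17AF ko libraries. These counts are near the shares of all genes called in that fit, 21.1% and 16.0%.

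Slc16a1, Pfkfb3 and Pfkm, which were not called between total T and no T libraries, were the members called higher than in no T libraries in some of the set C groups. Slc16a1 had 76.0 and 96.0 CPM in Tbet ko, 97.6 and 99.7 CPM in IFNg ko and 62.3 and 75.1 CPM in IL-17AF ko libraries, against 26.0, 35.5 and 49.5 CPM as the lowest, median and highest no T value. The log2 fold changes against no T libraries were 1.33 ± 0.28 in Tbet ko (adjusted p = 0.0082), 1.53 ± 0.28 in IFNg ko (adjusted p = 0.00276) and 1.00 ± 0.28 in IL-17AF ko (adjusted p = 0.0365). All 6 libraries lay above the no T range, and so did IL6Ra ko/IL21R ko M4, the set C library of that group, at 69.3 CPM, where the other 6 of that group had 23.7 to 44.8 CPM. Pfkfb3, whose product makes the activator of phosphofructokinase, had 181 and 314 CPM in Tbet ko and 299 and 242 CPM in IFNg ko libraries, against 101 to 175 CPM in no T libraries (0.83 ± 0.20, adjusted p = 0.0146, and 0.95 ± 0.20, adjusted p = 0.0048). In IL-17AF ko libraries Pfkfb3 had 182 and 226 CPM and was not called (0.54 ± 0.20, adjusted p = 0.098). In IL6Ra ko/IL21R ko M4 it had 111 CPM, inside the no T range. Pfkm had 43.9 and 26.9 CPM in IFNg ko and 28.9 and 28.1 CPM in IL-17AF ko libraries, against 13.8 to 21.4 CPM in no T libraries (1.11 ± 0.23, adjusted p = 0.00489, and 0.80 ± 0.23, adjusted p = 0.0395). In Tbet ko libraries Pfkm had 31.1 and 23.2 CPM (0.74 ± 0.23, adjusted p = 0.0524), and about 10.7% of its exon length is overlapped by Gm26513. IL6Ra ko/IL21R ko M4 had 25.1 CPM of Pfkm, and so had M2 of set B. Hk1 had 86.8 to 106 CPM over all set C libraries, above the no T libraries at 63.8 to 78.0 CPM. It was not called in Tbet ko, IFNg ko or IL-17AF ko against no T libraries (adjusted p from 0.152 to 0.251). Pfkfb4, a related enzyme, was lower in IFNg ko libraries, at 57.0 and 73.2 CPM against 75.9 to 107 CPM in no T libraries (-0.53 ± 0.15, adjusted p = 0.0215).

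Against no T libraries the members called numbered 2 in Tbet ko, both higher, where 7.3% of all genes were called, 4.46% higher and 2.84% lower. In IFNg ko libraries 3 were higher and 1 lower, where 13.2% of all genes were called, 6.95% higher and 6.22% lower. In IL-17AF ko libraries 2 were higher, where 6.03% of all genes were called, 3.99% higher and 2.05% lower. Without Tbet ko F1 or F2, without IFNg ko F1, and without IL-17AF ko F1 or F2 none was called. Leaving out a single no T library left 0 or 1 called in IL-17AF ko libraries, and the shares of all genes called in these fits are not given. The summed CPM of 8 fibroblast markers was 3497 and 3878 in Tbet ko, 3710 to 4197 in IFNg ko and 2519 to 3571 in IL-17AF ko libraries and 4217 in IL6Ra ko/IL21R ko M4, against 588 to 1684 in no T libraries, and their part in these values was not tested. Among the set C groups themselves, edgeR and DESeq2 called 0 of the 25 members in IL-17AF ko against the mean of Tbet ko and IFNg ko libraries (0.0079% of all genes) and 0 in IFNg ko against Tbet ko libraries (0.0% of all genes), with 0 at an unadjusted p under 0.05 in both.

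Related genes differed in which groups they were high in. The length used below is the annotated exon length of the gene, such as 13401 bases for Pfkp and 3340 for Pfkm. It may be longer than the transcripts that were read, so orders between related genes depend on it. Per kilobase of exon, Slc16a3 averaged 36.3 ± 33.1 CPM per kb in total T libraries and 5.21 ± 2.29 CPM per kb in no T libraries, while Slc16a1 averaged 10.8 ± 2.34 and 8.03 ± 2.03 CPM per kb (SD, n = 5 and 6). In IFNg ko libraries the order was the other way, with Slc16a1 at 22.3 ± 0.34 and Slc16a3 at 2.27 ± 1.05 CPM per kb (n = 2). Of the glucose transporters Slc2a1 had the highest mean in each of the 7 groups, with 65.4 ± 43.4 CPM per kb in total T and 12.9 ± 4.54 CPM per kb in no T libraries, and Slc2a3 was at 1.94 CPM per kb or less in every group mean. Hk3 had the highest mean of the hexokinases, at 83.6 ± 45.6 CPM per kb in total T and 40.0 ± 3.30 CPM per kb in no T libraries, followed by Hk2 at 40.6 ± 11.6 and 23.9 ± 4.38 CPM per kb and Hk1 at 11.5 ± 3.0 and 8.62 ± 0.60 CPM per kb. Of the phosphofructokinases, Pfkl led in total T libraries at 21.2 ± 12.9 CPM per kb, and Pfkm exceeded it in mean level in IFNg ko libraries, at 10.6 ± 3.60 against 9.17 ± 0.25 CPM per kb, by less than the spread between the libraries. Egln1 was at 21.4 ± 4.99 CPM per kb in total T and 21.4 ± 4.16 CPM per kb in no T libraries, far above Egln3 at 3.45 ± 3.44 and 0.53 ± 0.51 CPM per kb.

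**Figure D4:**
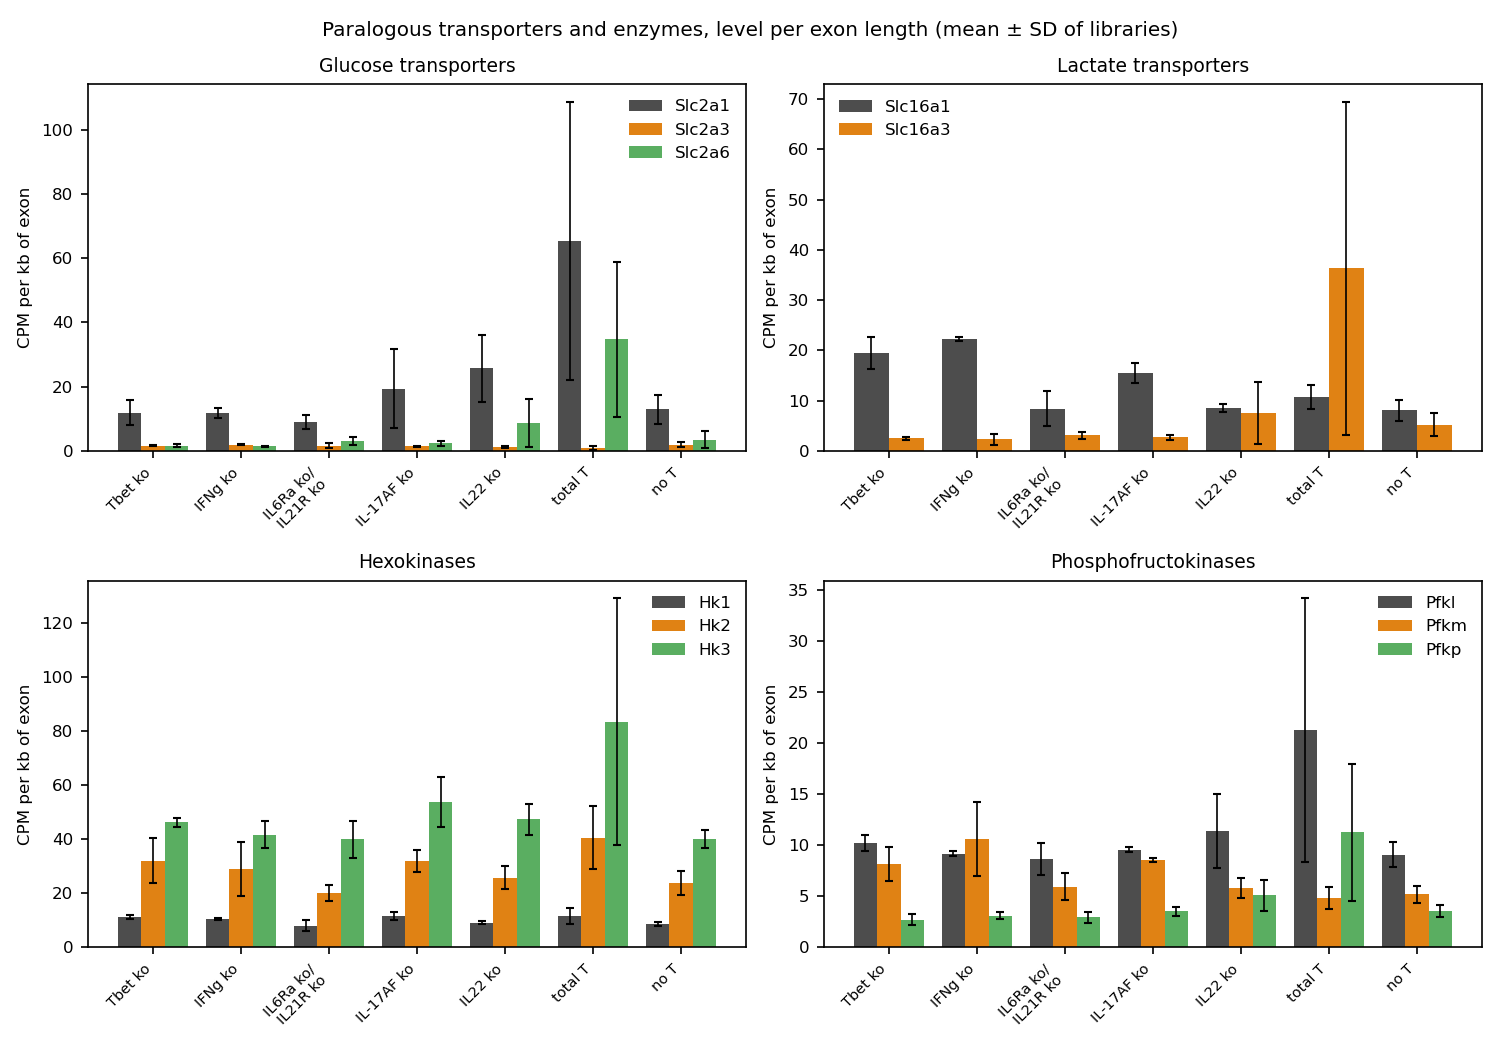
Mean CPM per kilobase of exon ± SD over libraries for the glucose transporters, lactate transporters, hexokinases and phosphofructokinases, by group, on linear axes from 0. Slc16a3 exceeds Slc16a1 in the mean of the total T libraries, where its SD is wide, and lies below it in the other 6 groups.

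Across the 7 groups together, edgeR's test of any difference called 17 of the 25 members without copies and 9 of the 9 with copies, where 38.0% of all genes were called, and DESeq2 called 18 of the 25, where it called 45.1% of all genes. Slc16a3 (adjusted p = 7.07e-06), Slc2a6 (9.04e-06), Slc2a1 (1.59e-05), Pfkp (2.97e-05) and Hif1a (7.83e-05) had the smallest adjusted p of those without copies. Egln3, Ddit4, Slc2a3, Pdk1, Eno2, Mxi1, Egln1 and P4ha1 were the 8 not called. Over the 27 libraries, which share groups and library sets, the genes most like Slc16a3 by the correlation of log2(CPM + 1) were Msrb1 (r = 0.962), S100a11 (r = 0.954), Pygl (r = 0.951), the liver glycogen phosphorylase, Ifi30 (r = 0.945) and Cers6 (r = 0.943). Those most like Slc2a6 were Ass1 (r = 0.964), Vdac2 (r = 0.955), Ifi30 (r = 0.950), AB124611 (r = 0.949) and Txn1 (r = 0.946). Slc2a1 and Pfkp went together (r = 0.919), while Slc16a1 did not follow Slc16a3 (r = -0.056) and went more with Ndrg1 (r = 0.708) and Pfkfb3 (r = 0.699).

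The 9 members with near-identical copies are given apart, since the reads of several differed widely between library sets. Gapdh, which oxidises glyceraldehyde phosphate, had 886, 422 and 849 CPM in the set A total T libraries F1, F2 and M1, against 231 to 327 CPM in the set A no T libraries. In set B it had 40.9 and 54.6 CPM in total T F3 and F4, against 29.1 and 27.4 CPM in no T F3 and F4. Within each set the total T libraries were higher, and the step between the sets was larger than the step between the groups. Pgk1, phosphoglycerate kinase, had 262, 72.8 and 187 CPM in set A and 14.3 and 18.5 CPM in set B total T libraries, against 27.2 to 57.3 CPM and 9.70 to 11.7 CPM in the no T libraries of these sets. Pgam1, phosphoglycerate mutase, had 63.5, 20.4, 3.67, 6.48 and 55.5 CPM in total T F1, F2, F3, F4 and M1, and 4.22 to 19.0 CPM in the no T libraries. Eno1, the main enolase, had 650, 300, 118, 156 and 522 CPM in the total T libraries, against 99.6 to 234 CPM in the no T libraries.

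Pkm, Aldoa, Ldha and Gpi1 spanned a narrower range over the no T libraries. Pkm, pyruvate kinase, had 2029, 808, 459, 565 and 1536 CPM in the total T libraries and 326 to 524 CPM in the no T libraries. Aldoa, an aldolase, had 1447, 600, 386, 531 and 1380 CPM in the total T libraries and 359 to 467 CPM in the no T libraries. Ldha, the lactate dehydrogenase subunit that favours lactate, had 1014, 421, 375, 364 and 819 CPM in the total T libraries, all above the 250.1 to 361 CPM of the no T libraries. Gpi1, glucose phosphate isomerase, had 678, 432, 373, 404 and 600 CPM in the total T libraries and 281 to 444 CPM in the no T libraries. Bnip3, a mitochondrial HIF target, had 52.2, 12.9, 13.4, 11.6 and 36.1 CPM in the total T libraries and 6.36 to 14.9 CPM in the no T libraries, and 22.3% of its exon length is overlapped by Gm45507. Against no T libraries 8 of these 9 members were called higher in total T libraries, from Gpi1 at 0.50 ± 0.13 (adjusted p = 0.00862) to Pgk1 at 1.90 ± 0.52 (adjusted p = 0.0108), and Gapdh was not called at 1.33 ± 0.59 (adjusted p = 0.114). Without total T F1 and M1, Ldha, Aldoa and Pkm were called. All 9 were lower in IL6Ra ko/IL21R ko than in total T libraries, from -0.74 ± 0.13 for Gpi1 to -4.07 ± 0.62 for Gapdh, and within set B 3 were called, with Gapdh at -0.79 ± 0.20. Against no T libraries, Gapdh alone was called lower in the IL6Ra ko/IL21R ko libraries, at -2.73 ± 0.58 (adjusted p = 0.013), and with library set as a term its log2 fold change was 0.24. All 9 were called lower in Tbet ko and in IL-17AF ko, and 8 in IFNg ko, against total T libraries, and against no T libraries edgeR called 0 in each of these 3 groups. There 3, 4 and 3 had an unadjusted p under 0.05 in Tbet ko, IFNg ko and IL-17AF ko libraries, and DESeq2 called 1, 4 and 1. In IL22 ko against total T libraries edgeR called 0 of the 9, with 9 at an unadjusted p under 0.05, and DESeq2 called 9.

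**Figure D5:**
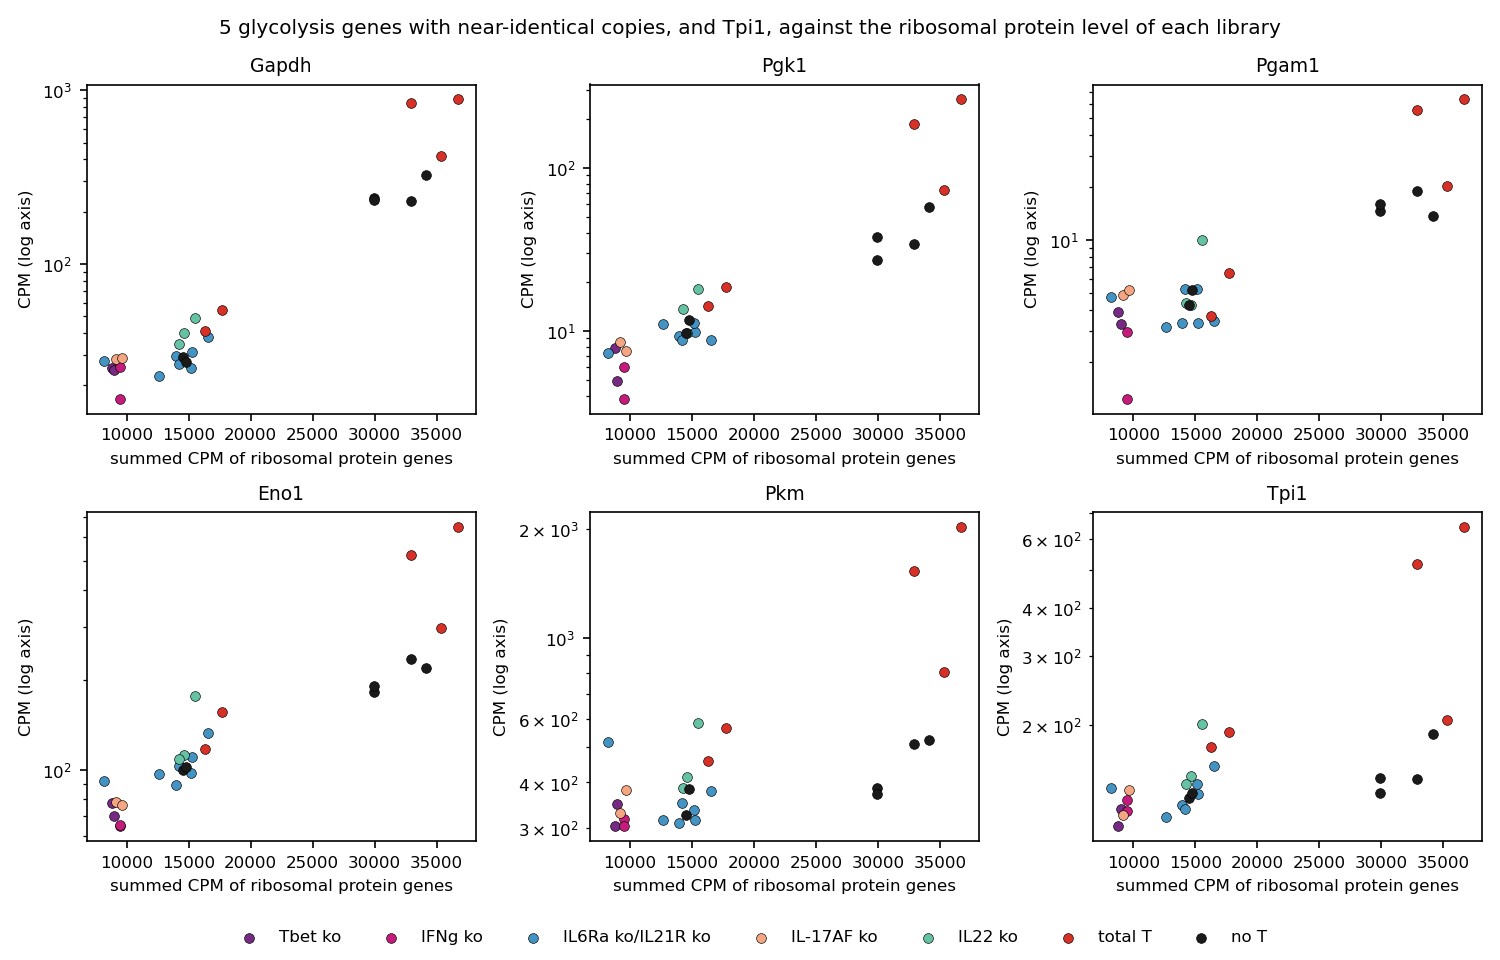
CPM (log axis) of Gapdh, Pgk1, Pgam1, Eno1 and Pkm, which have near-identical copies, and of Tpi1, which fell just below the limit, against the summed CPM of ribosomal protein genes in each library, coloured by group. The no T libraries of set B lie with the other set B libraries for Gapdh and Pgk1, at 27.4 to 29.1 CPM and 9.70 to 11.7 CPM, and those of set A lie at 231 CPM or more for Gapdh.

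Other genes of carbohydrate metabolism were read from lists of related pathways. The shares of all genes called were 11.5% higher and 9.6% lower in total T against no T libraries, and 14.8% lower in IL6Ra ko/IL21R ko against total T libraries. Of 9 tested genes of the pentose phosphate pathway, which branches off glycolysis and makes NADPH, 6 were higher and 0 lower in total T than in no T libraries, among them Taldo1 (0.70 ± 0.15, adjusted p = 0.00199) and Pgd (0.60 ± 0.15, adjusted p = 0.00532). The same number, 6 of 9, were lower in IL6Ra ko/IL21R ko than in total T libraries. Of 14 genes of pyruvate oxidation 6 were higher and 1 lower in total T libraries, with Cs, citrate synthase, at 0.66 ± 0.10 and 2 kinases of pyruvate dehydrogenase in opposite directions, Pdk3 at 1.08 ± 0.17 and Pdk2 at -0.94 ± 0.19. Of 10 glycogen genes 3 were higher and 1 lower. Gyg, the primer of glycogen synthesis, was at 1.61 ± 0.23, Pygl at 1.88 ± 0.34 and Pygb, another glycogen phosphorylase, at -0.54 ± 0.12. Of 18 other glycolysis genes 4 were higher and 1 lower, led by Gpd2, the mitochondrial glycerol phosphate dehydrogenase, at 1.23 ± 0.17. The 35 other tested genes of the HIF pathway, of which 5 were higher and 3 lower, had a median of -0.035 against -0.025 for all genes, and the 3 with the smallest p were Bhlhe40 (1.53 ± 0.33), Ero1l (1.10 ± 0.29) and Fam13a, which was lower at -1.74 ± 0.50. Tmem45a (-1.24 ± 0.40) and P4ha2 (-1.37 ± 0.45) were the others called lower. These 35 genes and the members without copies were not tested against each other.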

How the data were processed

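Per the submitters' processing notes, the authors used STAR 2.4.0j, featureCounts and DESeq2 1.20.0 with GRCm38. The deposited table is named as normalized, but it holds whole read counts per gene: every count from 1 to 20 occurs in each of the 27 columns, so the values were treated as counts. Columns were assigned to samples by group and sex, since they carry no replicate number. Kits were unstranded, per the labels' protocols.

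Counts were fitted in edgeR 4.0.16 (R 4.3.3, limma 3.58.1) with TMM scaling, group and sex as terms and all 27 libraries, and p-values from the quasi-likelihood test were adjusted by Benjamini-Hochberg over 12661 genes, those whose normalized count averaged 10 or more. Calls are at an adjusted p under 0.05. The fit was tested on simulated data with 200 changed genes. DESeq2 1.42.0, other scaling, no filter, female libraries, library set as a term or alone, and leaving out each library were alternatives. Near-identical copies were sought with bwa 0.7.19 among GENCODE transcripts, without a genome, and tables were made in Python 3.11.15.

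All 35 members are accounted for. Values in every library are given for members called in total T against no T or IL6Ra ko/IL21R ko against total T libraries and for those with the smallest p over the 7 groups, and up to 15 called members a comparison get a fold change. Of other lists, up to 3 genes with the smallest p are named. The members and lists were chosen with earlier results of these data known. Comparisons share the total T or no T libraries.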

Additional observations from a re-analysis of the deposited data

Results flagged for a closer look

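In 8 of 102 tests of a member within a group of 4 to 10 libraries, 1 library lay far from the others by Dixon's criterion, which chance meets in about 1 of 20 groups. Among no T libraries, Slc2a6 was at 28.8 CPM in F2, where the others had 5.67 to 9.54 CPM. Tpi1 was at 189 CPM in the same library, where the others had 130 to 146 CPM. Hk1 was at 63.8 CPM in no T F3, below the other libraries at 74.1 to 78.0 CPM, and Bnip3 was at 6.36 CPM in no T F4, below the others at 11.4 to 14.9 CPM. No T F3 and F4 were the only set B libraries of that group, and Bnip3 is a member with near-identical copies. Among IL6Ra ko/IL21R ko libraries, Pkm was at 517 CPM and Ddit4 at 13.3 CPM in M4, the set C library, where the others had 309 to 380 CPM and 6.95 to 9.07 CPM. Vegfa was at 52.1 CPM in IL6Ra ko/IL21R ko F3, where the others had 13 to 22.2 CPM. Ndrg1 was at 100.5 CPM in total T F1, where the others had 48.3 to 59.5 CPM.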

How the results depend on the processing

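Values here are numbers of the 25 members without copies called. Without total T F1 and M1, 5 were called in total T against no T (15 with all libraries), 9 in IL6Ra ko/IL21R ko, 6 in Tbet ko and 4 in IL-17AF ko against total T (16, 11 and 8 with all), and 11 over the 7 groups (17). With female libraries only, 9 were called in total T and 1 in IL-17AF ko (2 with all) against no T, where 12.3% and 7.29% of all genes were called. In set B, 0 were called in total T against no T, 9 in IL6Ra ko/IL21R ko against total T, 2 in IL6Ra ko/IL21R ko against no T and 3 in IL22 ko against IL6Ra ko/IL21R ko. The shares of all genes called there were 0.742%, 6.65%, 0.474% and 1.32%, in the same order. Without a filter on low counts, 2 were called in IL6Ra ko/IL21R ko, 4 in IL22 ko, 5 in Tbet ko and 4 in IL-17AF ko against no T, 10 in IL22 ko against total T and 6 in IL22 ko against IL6Ra ko/IL21R ko. The shares of all genes called without the filter are not given, so these counts do not show whether the members stood out. DESeq2 called 9 in IL22 ko against total T and 1 against IL6Ra ko/IL21R ko, where it called 5.75% and 0.66% of all genes. Scaling without ribosomal protein and copy genes left 1 in IL-17AF ko against no T. The cause of these differences was not tested. Among members with copies, Pgam1 was at -0.01 in total T against no T without total T F1 and M1, against 1.37 with all, and Gapdh was at 0.24 in IL6Ra ko/IL21R ko against no T with library set as a term, against -2.73 without it.

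Leaving out 1 library at a time gave these lowest and highest numbers, for which the shares of all genes called are not given. Against total T they were 12 to 17 in IL6Ra ko/IL21R ko, 0 to 9 in IL22 ko, 4 to 13 in Tbet ko, 6 to 15 in IFNg ko and 2 to 10 in IL-17AF ko. Against no T they were 10 to 16 in total T, 0 and 0 in IL6Ra ko/IL21R ko, 0 and 0 in IL22 ko, 0 to 2 in Tbet ko, 0 to 4 in IFNg ko and 0 to 1 in IL-17AF ko. They were 0 to 1 in IL22 ko against IL6Ra ko/IL21R ko, 0 and 0 among set C groups, and 12 to 18 over the 7 groups. Where 1 library of a group of 2 was left out, the other was assumed to vary like the other groups. No paired analysis was possible because the column names do not carry the replicate numbers given in the labels. Egln3, Aldoc and Slc2a3 had the lowest counts of the members called, which limits their precision.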
